A study of Mus musculus with 21 samples.

Results

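The chromatin regions described here were 624 peaks that were open mainly in lung endothelium, out of 58796 autosomal peaks in a table of 60119. ATAC-seq cuts DNA where it is not wrapped tightly in nucleosomes, so the number of reads in a peak measures how open that stretch of the genome is over the cells of a library. The members were chosen by their own levels. Counts were divided by the library total and multiplied by 1000000 to give counts per 1000000 (CPM). A member had a lung mean of at least 5 CPM, and its lung mean plus 0.5 CPM was at least 3 times the brain mean plus 0.5 and 3 times the liver mean plus 0.5. Lung levels of the members and their distance from brain and liver are therefore a description, and no test is given for them.

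All libraries came from C57BL/6J mice aged 2 to 4 months, with no treatment or altered gene named in the labels. Live cells carrying CD31 and lacking PDGFRβ and CD45 were sorted from perfused, enzyme-digested brain, lung or liver, and myelin was removed from brain. ATAC-seq covered 4 brain, 4 lung and 3 liver libraries. The labels do not say whether a library came from 1 animal or from pooled animals, so the spread between libraries may be technical.

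Endothelial cells line every blood vessel, and each organ gives them other tasks. In lung they form the thin alveolar capillary wall across which gas is exchanged. In brain they form a tight barrier, and in liver they line open sinusoids that clear proteins from blood. Regions open in 1 cell type and closed in others are often distal regulatory elements, known as enhancers, that act on genes from a distance, while promoters of widely used genes tend to be open in most cells. Peaks are given here by position in mm9, counted from 1; no annotation of that build was used, so they carry no gene names.

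Depth differed between libraries. Lung libraries 1 and 2 held 5857763 and 6046832 counts in peaks, and the other lung libraries, called a and b because their columns could not be tied to a numbered label, held 1335711 and 1244653. Brain libraries held 5003580 to 17956240 counts and liver libraries 1856763 to 2175575. A level of 5 CPM stood for 29.3 and 30.2 counts in lung 1 and 2 but for 6.68 and 6.22 counts in lung a and b. Across all autosomal peaks, Pearson correlations of log2(CPM + 0.5) were 0.938 to 0.966 within brain, 0.843 to 0.863 within liver and 0.791 to 0.948 within lung, and 0.698 to 0.808 between tissues. Peaks of 1 genome are not independent, so these values only describe the libraries.

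The sort could be checked in the 3 bulk RNA libraries of each tissue, which are other libraries than the ATAC ones. In lung, 6 endothelial genes (Pecam1, Cdh5, Kdr, Tie1, Tek and Erg) summed to 8135 to 11033 CPM and 6 genes known from lung endothelium (Car4, Ednrb, Foxf1, Tbx2, Calcrl and Fendrr) to 7537 to 8074 CPM. The first list summed to 3576 to 4351 CPM in brain and 4590 to 4726 CPM in liver. The second list summed to 630 to 682 CPM in brain and to 714 to 909 CPM in liver. All 7 lung epithelial genes (Sftpc, Sftpb, Sftpa1, Scgb1a1, Epcam, Cdh1 and Nkx2-1) were detected in lung, at a sum of 300.3 to 1791 CPM. In brain all 7 were at 0, and in liver 3 of 7 were detected, at 1.75 to 13.8 CPM. All 6 leukocyte genes were detected in lung, at 77.2 to 120.3 CPM, against 0.279 to 9.82 in brain and 5.90 to 20.3 in liver. Fibroblast genes summed to 26.7 to 46.4 CPM in lung, 2.95 to 23.0 in brain and 5.05 to 10.1 in liver; mural genes summed to 9.69 to 40.3, 23.8 to 155.5 and 0.899 to 9.79. Lymphatic genes, some of which sinusoids also express, summed to 1071 to 1511 CPM in lung, 324 to 434 in brain and 2457 to 2968 in liver. Epithelial, leukocyte and fibroblast transcripts thus moved with the lung group, and their part in the lung-mainly peaks was not tested.

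The members were open in lung and low in both other tissues. The median member had 15.2 CPM in lung, with quartiles at 9.63 and 25.1 and a highest value of 218. The same peaks had a median of 1.90 CPM in brain and 3.31 CPM in liver. A higher value may mean that more cells had the region open or that it was open more often in each, which bulk libraries cannot tell apart. The median fold over the nearer of both tissues, with 0.5 CPM added to each mean as in all folds of lung given here, was 3.85, with quartiles at 3.33 and 4.73, so most members lay close above the threshold of 3. A fold of at least 4 was reached by 285 members, of at least 6 by 54 and of at least 10 by 4.

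Liver set the limit more often than brain. The median fold was 6.19 over brain and 4.02 over liver, and 3685 autosomal peaks at the lung minimum met the fold against brain while 818 met it against liver. CPM by library total also put the median of all autosomal peaks higher in liver, at 6.44 to 8.62 CPM by library. It was 3.86 to 6.27 CPM in brain and 4.44 to 5.79 CPM in lung. The part of this scaling in the liver limit was not tested. Few members were near absent elsewhere: 112 had under 1 CPM in brain, 38 in liver and 24 in both. At the other end, 58 members had 10 CPM or more in brain or liver. The plot of lung level against the nearer tissue shows the members as the upper edge of the whole cloud of peaks, with no gap between them and the rest.

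**Figure D1:**
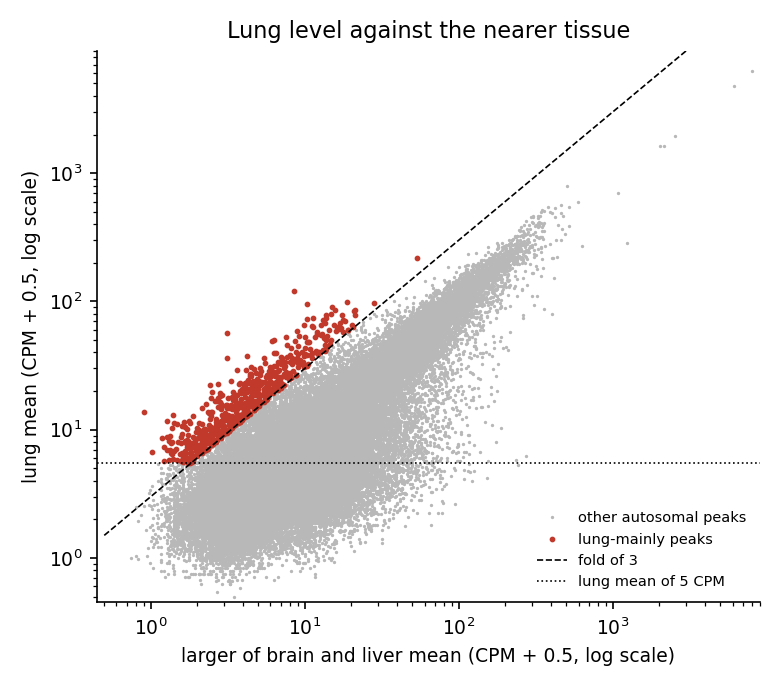
Each point is an autosomal peak, with the larger of the brain and liver means on the horizontal axis and the lung mean on the vertical axis, both in CPM plus 0.5 on log scales. The 624 lung-mainly peaks (red) lie above the dashed line of a fold of 3 and the dotted line of 5 CPM, most of them close to the dashed line.

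The largest fold, 17.9, belonged to chr5:65486133-65486941, a peak of 809 bp. Its levels were 73.2, 59.7, 52.4 and 37.8 CPM in lung 1, 2, a and b. Brain libraries 1 to 4 had 0.501, 6.12, 2.8 and 1.14 CPM and liver libraries 1 to 3 had 4.62, 2.76 and 0 CPM. The lowest lung library lay above every other library.

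A narrower peak of 438 bp at chr2:84114438-84114875 had the second largest fold, 15.1. It had 9.56, 18.7, 14.2 and 10.4 CPM in the lung libraries. Brain had 0.446, 1.04, 0 and 0.143 CPM and liver 0, 0.919 and 0 CPM, with 0 counts in 1 brain and 2 liver libraries. At these depths a count of 0 allows up to 0.5996 CPM in that brain library and up to 1.39 and 1.62 CPM in those liver libraries, for counting error only.

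The next, chr8:123399902-123401067, joined a large fold with a high level and a wide peak. It was 1166 bp wide and had 163, 113, 93.6 and 112 CPM in lung, against 0.668, 3.58, 5.2 and 2.29 CPM in brain and 5.09, 4.6 and 14.5 CPM in liver. Its fold was 14.1, it had the second highest lung mean of all members (120.4 ± 29.6 CPM, SD, n = 4) and it was the second widest. The peak next to it in the table, chr8:123354449-123355162, was also a member, and both lay within 46.6 kb. Its lung values were 87.6, 68.8, 27.7 and 76.3 CPM, with 1.5, 3.28, 2.8 and 2.29 CPM in brain and 5.55, 9.19 and 13.5 CPM in liver.

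The other peaks among the 6 with the largest fold were chr3:15118676-15119289, chr15:74739874-74740770 and chr13:81362849-81363207, with folds of 11.6, 9.33 and 9.28. Lung values were 32.3, 38.7, 40.4 and 31.3 CPM in the first of them, 130.3, 91.9, 78.6 and 81.1 CPM in the next and 8.19, 13.7, 13.5 and 14.5 CPM in the last. In none of the 3 did a brain or liver library exceed 11.8 CPM. The peak on chromosome 13 was small, 359 bp wide, and lung 1 had the lowest value there.

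The highest lung mean belonged to a peak that was open in every tissue. The peak chr12:47919872-47920984, 1113 bp wide, had 219, 161, 280.0 and 212 CPM in lung, 41.9, 41.2, 70.7 and 60.04 CPM in brain and 41.6, 25.3 and 47.9 CPM in liver. Its fold was 4.05, and brain and liver levels there exceeded the lung level of most other members. Lower but still strongly open in lung were chr4:148299997-148301093, chr1:82287363-82288461 and chr15:53679839-53680540, with lung means of 97.9 ± 25, 96.6 ± 7.53 and 90.4 ± 17.1 CPM (SD, n = 4). The peak chr1:82287363-82288461 varied little between lung libraries, with 97.5, 86.3, 98.1 and 104 CPM in lung, 10.1, 16.9, 20.2 and 11.1 CPM in brain and 27.7, 26.7 and 28.5 CPM in liver. In chr15:53679839-53680540 the liver libraries differed among themselves, at 10.2, 26.2 and 7.54 CPM, while brain lay at 1.45, 3.73, 5.6 and 3.14 CPM.

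At the thresholds the members differed little from peaks left out. The member with the lowest lung mean, chr1:179459861-179460085, had 5.03 CPM, from 3.76, 7.28, 7.49 and 1.61 CPM by library. The peak with the highest mean under the minimum, chr3:149100037-149100256, had 4.95 CPM, from 4.44, 7.44, 1.5 and 6.43. The lung values of both peaks overlapped. At the fold threshold, chr8:86308908-86309371 was inside at 3.002 and chr6:34334965-34335249 outside at 2.997 to 4 digits. Altogether 45 autosomal peaks met the fold but not the lung minimum.

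Every lung library was higher than all 7 brain and liver libraries in 583 of 624 members (93.4%). Over all autosomal peaks this held for 4.17%, but the rule used these same values, so nothing is read from the difference. The filter on low counts passed 623 of the 624 members. The edgeR quasi-likelihood test called all 623 higher in lung than in brain, against 15.8% of all peaks tested, and 620 higher in lung than in liver, against 5.50%. These calls too follow from the choice of members. The share of a library's counts in peaks that fell in members was 1.22% to 1.44% in lung, 0.136% to 0.255% in brain and 0.242% to 0.309% in liver. By library the lung shares were 1.44% in lung 1 (95% exact binomial interval 1.43% to 1.45%), 1.35% in lung 2 (1.35% to 1.36%), 1.22% in lung a (1.21% to 1.24%) and 1.26% in lung b (1.24% to 1.28%).

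Median levels per library told the same in more detail. The median member had 15.9, 16.8, 14.2 and 14.5 CPM in lung 1, 2, a and b. In brain it had 1.17, 3.13, 2.20 and 1.29 CPM, and in liver 3.70, 2.76 and 3.77 CPM. Lung a held 1 member at 0 counts and the other lung libraries none, whereas 1 to 27 members were at 0 in a brain library and 34 to 59 in a liver library. A single count stood for 0.46 to 0.539 CPM in liver libraries and for 0.0557 to 0.2 CPM in brain libraries. In lung a and b it stood for 0.749 and 0.803 CPM. The part of depth in the zeros was not tested. The lung libraries did not overlap the others in their medians, and brain 2 and the liver libraries were the highest of the rest.

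**Figure D2:**
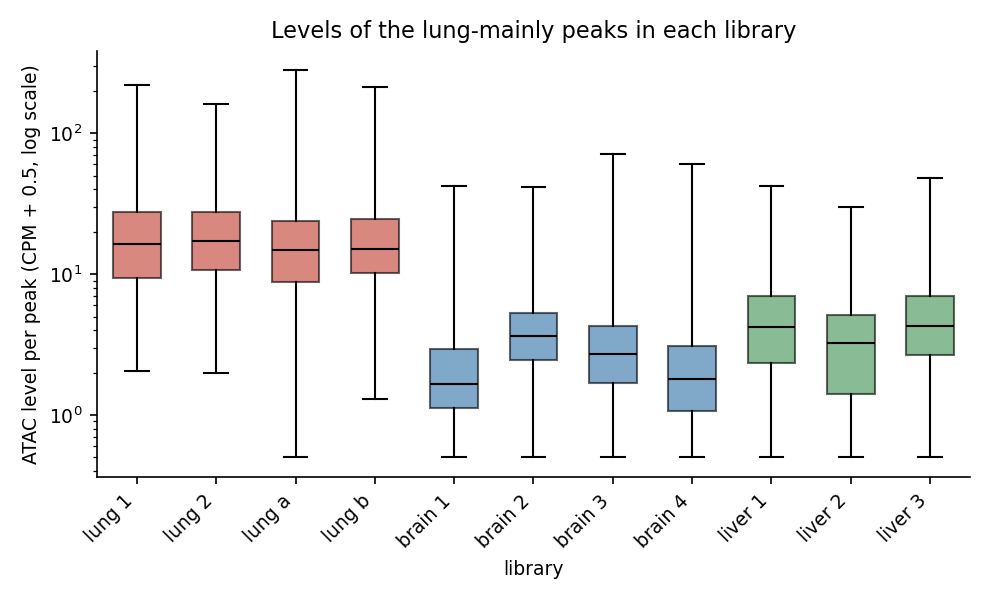
Each box gives the quartiles and median of the 624 lung-mainly peaks in 1 library, with whiskers to the lowest and highest peak, in CPM plus 0.5 on a log scale. The 4 lung medians lie at 14.2 to 16.8 CPM and those of the 7 other libraries at 1.17 to 3.77 CPM.

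The median spread over the 4 lung libraries was slightly above that of other peaks, although counting error would give a slightly lower value. The coefficient of variation (CV, the SD as a percent of the mean) over lung libraries had a median of 27.4%, with quartiles at 19.6% and 37.0%, where counting error alone would give a median of 17.6%. Other autosomal peaks with at least 5 CPM in lung had a median CV of 25.8% and a counting value of 19.2%. The spread shrank with the level: from a median of 35.0% among 166 members at 5 to 10 CPM to 27.8% among 236 at 10 to 20, 23.5% among 153 at 20 to 40 and 21.6% among 69 at 40 CPM or more. The counting values in these classes were 25.2%, 18.1%, 13.5% and 8.96%. All 4 lung libraries reached 5 CPM in 513 members, 3 of them in 72 and 2 or fewer in 39.

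Among members with a lung mean of 10 CPM or more, the steadiest held nearly the same level in all lung libraries. The peak chr2:158994249-158995024, 776 bp wide, had 43.4, 44, 42.7 and 41.8 CPM, a CV of 2.21%. The peak chr17:89029113-89029753 had 31.1, 28.4, 31.4 and 31.3 CPM and chr5:16982087-16982659 had 19.5, 19.7, 18.7 and 17.7 CPM, with CVs of 4.67% and 4.79%. In these 3 members the lung levels hardly differed between deep and shallow libraries.

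The least steady of them was chr7:53632038-53632594, 557 bp wide, whose level split the lung libraries. Lung 1 and 2 had 3.76 and 6.12 CPM, from 22 and 37 counts, and lung a and b had 100.3 and 72.3 CPM, from 134 and 90 counts. Liver had 16.6, 8.27 and 14 CPM and brain 0.39, 4.03, 3.6 and 1.57 CPM, so that the first pair of lung libraries lay below all 3 liver libraries. Its lung mean of 45.6 CPM thus described none of the 4 libraries, and its CV was 106%. It is one of the 41 members in which lung libraries overlapped the others. Next in that group by lung mean were chr2:179851384-179851817 and chr10:79570339-79570943, where only lung a overlapped: their lung values were 24.4, 28.3, 9.73 and 21.7 CPM and 23, 24.6, 10.5 and 22.5 CPM, against a highest other library of 10.8 and 10.6 CPM.

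The next members by CV leaned the other way, toward lung 1. The peak chr6:117995232-117995585 had 17.2, 16.5, 5.99 and 2.41 CPM in lung 1, 2, a and b and chr3:152837561-152837999 had 24.4, 9.59, 5.99 and 8.84, with CVs of 70.9% and 67.8%. The largest difference in favour of lung 1 and 2 among all members was at chr7:119533971-119534254, singled out after its values were seen, with 10.6, 8.43, 0 and 1.61 CPM, from 62, 51, 0 and 2 counts.

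As pairs, lung 1 and 2 ran slightly higher than lung a and b over the members. The median log2 ratio of the pair means, each plus 0.5 CPM, was 0.16 over members, 0.06 over other peaks at 5 CPM or more in lung and 0.02 over all autosomal peaks. Of the 624 members, 391 were higher in lung 1 and 2. A difference of at least 2-fold was seen in 29 members in favour of lung 1 and 2 and in 8 in favour of lung a and b. The same shares over other peaks were not computed, so nothing particular to the members is read from these counts. Depth moved with this split and its part was not tested.

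Each pair of lung libraries was also set against members chosen without it. When lung 1 and 2 alone chose, with the same brain and liver libraries, 797 peaks met the rule. In lung a and b, which had no part in that choice, 421 of these (52.8%) again reached a fold of 3, and the median fold was 3.09. When lung a and b alone chose, 617 peaks met the rule, of which 417 (67.6%) reached a fold of 3 in lung 1 and 2, with a median of 3.70. Peaks chosen by both pairs numbered 410, which was 51.4% of the first list and 66.5% of the second. Brain and liver values were shared and low by choice, so these counts describe how far the lists depend on the lung libraries and support nothing about the set.

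**Figure D3:**
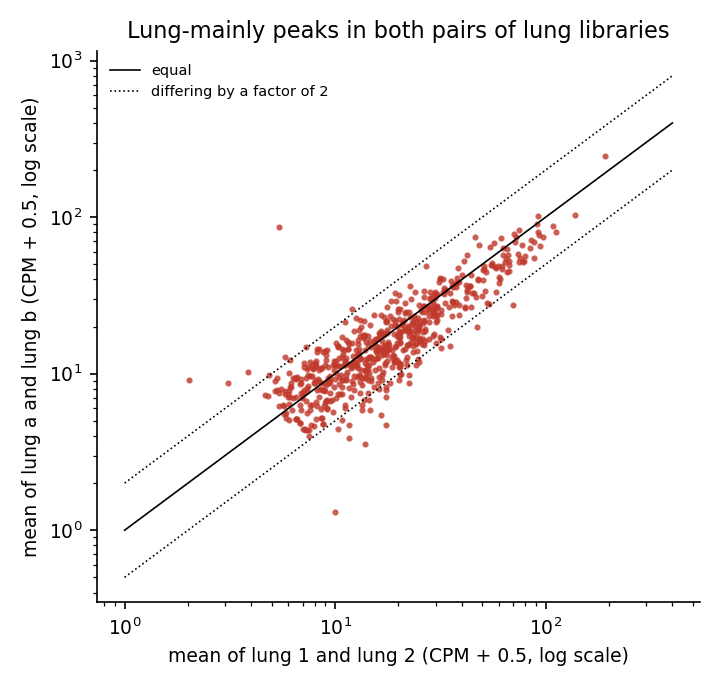
Each point is a lung-mainly peak, with the mean of lung 1 and 2 on the horizontal axis and that of lung a and b on the vertical axis, in CPM plus 0.5 on log scales; dotted lines mark a difference by a factor of 2. Most of the 624 peaks lie between the dotted lines, and chr7:53632038-53632594 stands far above them.

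Brain and liver were also set against each other within the members. The rule sets no order between them, but it holds both below lung with these same values, so what follows is a description. The liver mean exceeded the brain mean in 498 of 624 members (79.8%), against 65.7% of all autosomal peaks and 61.8% of other peaks at 5 CPM or more in lung. The edgeR quasi-likelihood test over all peaks, with Benjamini-Hochberg adjustment, called 100 of 623 members (16.1%) higher in liver, against 18.9% of all peaks tested, and 7 (1.12%) higher in brain, against 13.1%. The median log2 fold change of brain over liver was -0.44 over members and -0.12 over all peaks tested. Nothing is read from these shares. Without brain library 1 the members called higher in liver were 40 of 622, where 7515 of 54846 peaks were called. Without brain library 4 they were 57 of 622, where 8054 of 54846 peaks were called. A fit with a replicate block used libraries 1 to 3 of brain and liver only, and 320 members passed its filter on low counts. Its result is therefore not the effect of the block alone. In it 21 of the 320 were called higher in liver, where 7640 of 49076 peaks were called. By edgeR 0 members were called higher in brain there, where 6196 peaks were called. Of the members, 5 were higher in brain at an unadjusted p under 0.05 in that edgeR fit, against 9238 of 49076 peaks. DESeq2 without a block, over all 11 libraries, called 8 of 624 members higher in brain, where 8206 of 60119 peaks were called. Without liver library 3, 13 of 624 members were called higher in brain, where 6820 of 59194 peaks were called. With library totals in place of TMM factors the median over all peaks became -0.44. The test then called 147 of 623 members higher in liver, where 13757 of 58293 peaks were called. It called 2 members higher in brain, where 4548 peaks were called.

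Of the 3 largest differences toward liver, 2 lay in members with liver signal well above brain in every library. The peak chr2:92823140-92823928, 789 bp wide, had 77.5, 53.3, 31.4 and 57 CPM in lung, 10.6, 10.1 and 16.7 CPM in liver and 1.002, 4.48, 0.3997 and 1.29 CPM in brain. Its log2 fold change of brain over liver was -2.53 (SE 0.38). At chr6:55277268-55277874 the values were 89.3, 66.6, 44.2 and 57.8 CPM in lung, 21.3, 8.73 and 15.1 CPM in liver and 0.501, 3.73, 1.999 and 3.86 CPM in brain (-2.38 on the log2 scale, SE 0.40). In both, the liver libraries lay above every brain library and below every lung library. The largest log2 value, -2.56 (SE 0.63), belonged to the weaker peak chr2:121676696-121677084, with 2.15 to 4.14 CPM in liver and 0 to 1.19 CPM in brain. There too, every liver library lay above every brain library and below every lung library.

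The members named as higher in brain were weak peaks in both tissues. The peak chr14:86501326-86501636 had 0.111, 1.79, 2.8 and 0.429 CPM in brain and 0 counts in all 3 liver libraries. Brain 1 and 4 lay under the 0.484 CPM that 3 counts over the liver libraries stand for, so its brain signal rests on brain 2 and 3. The peak chr4:90468849-90469147 had 2.34, 4.33, 3.6 and 1.43 CPM in brain and 0, 1.84 and 0 CPM in liver, with brain higher by 2.38 on the log2 scale (SE 0.74). The peak chr19:27691951-27692424 had 1.56, 6.57, 7.19 and 1.43 and 0.925, 1.84 and 2.15 CPM in brain and liver (1.52 on the log2 scale, SE 0.55). Brain 4 lay within the liver range in the second of these peaks, and brain 1 and 4 did in the last.

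For comparison, the same rule with the tissues exchanged chose 1548 peaks open mainly in brain and 2184 open mainly in liver. Brain-mainly peaks had a median of 28.3 CPM in brain, 6.46 in liver and 3.79 in lung. Liver-mainly peaks had a median of 13.5 CPM in liver, 2.44 in lung and 1.63 in brain. Lung-mainly peaks, at 15.2 CPM in lung, 3.31 in liver and 1.90 in brain, were the smallest set, and in each of the sets chosen for lung or brain, liver had the higher median of the remaining tissues.

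Lung-mainly peaks were of middling width. Their median was 444 bp, with quartiles at 341 and 568 bp, against 409 bp for all autosomal peaks, 656 bp for brain-mainly and 325 bp for liver-mainly peaks. The closer comparison is with the 29845 other autosomal peaks that also had at least 5 CPM in lung, since a wider peak collects more counts; their median was 581 bp. Members were narrower than these in each of 4 classes of lung level, a difference given without a test. The medians were 292.5 against 407 bp at 5 to 10 CPM, 436 against 540 bp at 10 to 20, 565 against 719.5 bp at 20 to 40, and 774 against 938 bp at 40 CPM or more. A width of 1000 bp was reached by 14 members (2.24%), by 6.08% of all autosomal peaks, by 11.8% of the other peaks at 5 CPM or more in lung, by 9.17% of brain-mainly and by 0.229% of liver-mainly peaks. Per kilobase of peak, the median member had a lung level of 34.0 CPM and the median other peak 25.7 CPM. These values were not matched for level: the median lung mean was 15.2 CPM for members and 12.8 CPM for the other peaks.

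Width and level went together within the members. Spearman's rho of width and lung mean over the 624 members was 0.87, and 0.72 over the other peaks at 5 CPM or more in lung; the points share their libraries and a wider peak gathers more reads, so this is a description only. The widest member, chr17:82004528-82006104, covered 1577 bp and had 59.2, 62.2, 89.1 and 57 CPM in lung, 1.34, 7.16, 6.8 and 2.57 CPM in brain and 12.5, 8.73 and 17.8 CPM in liver. Next after the peak on chromosome 8 came chr4:131299738-131300869, at 1132 bp, which had 107, 77.2, 65.9 and 86 CPM in lung and 13.7 to 22.1 CPM in the other libraries. At the narrow end 6 members had the least width in the table, 200 bp. The first of them in genome order, chr6:45038422-45038621, chr7:31216898-31217097 and chr7:82919478-82919677, had lung means of 6.46 ± 2.78, 6.52 ± 3.66 and 5.13 ± 1.05 CPM (SD, n = 4), which in lung a and b rest on 4 to 13 counts each.

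**Figure D4:**
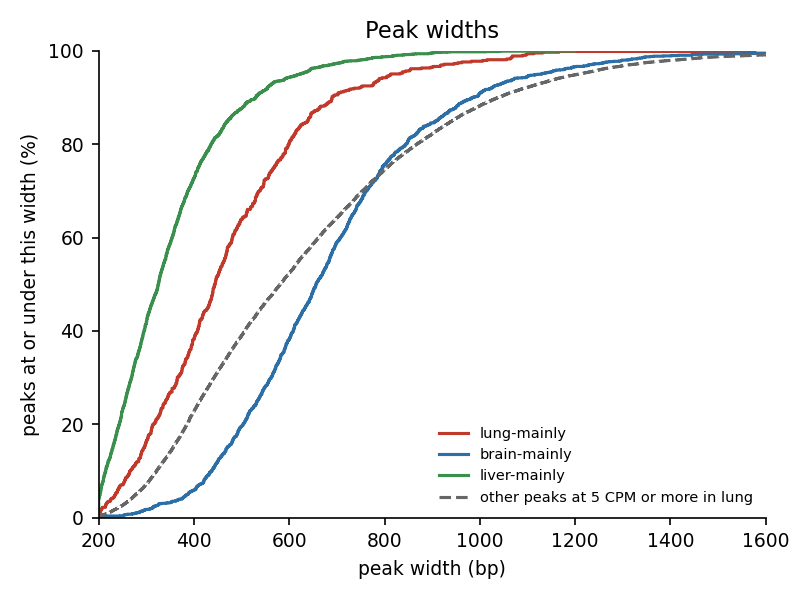
Curves give the percent of peaks at or under each width in bp for lung-mainly, brain-mainly and liver-mainly peaks and for other autosomal peaks with at least 5 CPM in lung; the few peaks wider than the axis are not shown. The lung-mainly curve, with a median of 444 bp, runs between those of liver-mainly (325 bp) and brain-mainly peaks (656 bp).

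The members were spread over all 19 autosomes. They made up 1.06% of all autosomal peaks, and between 0.627% of the peaks of chromosome 13 (18 of 2871) and 1.31% of those of chromosome 6 (45 of 3432). Chromosome 2 held the most, 57, followed by chromosome 4 with 46. Chromosomes 1 and 6 held 45 each, and chromosomes 13 and 16 the fewest, 18 each. No chromosome held more than 9.13% of the members.

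Most members lay alone among other peaks. The median distance from a member to the nearest other member was 758 kb. Another member lay within 50 kb of 76 members (12.2%), within 10 kb of 37 and within 5 kb of 32. This share moved with the choice of members, and the number of peaks chosen moved as well. It was 18.5% of 796 peaks without liver library 3 and 18.9% of 809 with TMM library sizes. When lung 1 and 2 alone chose, it was 20.7% of 797. For brain-mainly and liver-mainly peaks, which are more numerous, it was 36.3% and 36.4%. The part of set size in this share was not tested. Members also lay in emptier surroundings than all autosomal peaks. Of the members, 11.2% had no other peak of any kind centred within 50 kb. The share was 5.43% of all autosomal peaks, 4.33% of other peaks at 5 CPM or more in lung, 7.78% of liver-mainly and 3.29% of brain-mainly peaks. The median distance to the nearest peak of any kind was 6.01 kb for members and 5.33 kb for all autosomal peaks. It was 6.49 kb for liver-mainly and 3.84 kb for brain-mainly peaks.

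Next to a member, however, another member was met more often than elsewhere. Of the 1248 neighbouring places directly before or after a member, 68 (5.45%) held another member, against 1.06% of all autosomal peaks. The same shares were 11.1% against 2.63% for brain-mainly and 15.8% against 3.71% for liver-mainly peaks. Neighbours of other classes were less common than over all autosomal peaks: 17 places (1.36%) held a brain-mainly peak, against 2.63% there, and 29 (2.32%) a liver-mainly peak, against 3.71%. These differences carry no test.

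Members within 50 kb of each other formed 35 clusters with 76 members in all, of which 5 clusters had 3 or more. In 25 of the 35, no other peak lay between the members, and 15 spanned under 10 kb, with a median span of 15.6 kb. The largest cluster held 4 members in a row within 30.8 kb at chr6:117985751-118016588, with no other peak in between. Its outer peaks, chr6:117985751-117986818 and chr6:118015956-118016588, were the strongest, with 68.5, 54.9, 41.2 and 51.4 and 60.8, 48.5, 48.7 and 49 CPM in lung. Between them lay chr6:117997810-117998341, with 49.5, 38, 29.9 and 22.5 CPM, and the uneven peak chr6:117995232-117995585 described above. Brain and liver libraries had 4.79 to 16.6 CPM in the first peak, 0.835 to 10.8 CPM in chr6:117997810-117998341 and 8.79 to 17.2 CPM in the last.

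The next cluster, at chr7:28278116-28287153, held 3 members in 9.04 kb with no other peak between. Lung values were 39.8, 43.2, 29.9 and 29.7 CPM in its first peak, 15.7, 10.7, 24 and 18.5 CPM in the second and 69.8, 48.8, 36.7 and 45 CPM in the last. The second was the narrowest, at 289 bp, and had the largest fold, 5.6. Brain was lower than liver in the first peak, at 3.84, 7.31, 3.8 and 1.86 against 11.1, 11 and 9.69 CPM (-1.06 on the log2 scale, SE 0.33), whereas in the last peak both lay at 10.8 to 14.7 CPM.

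On chromosome 15, 3 members in 11.9 kb at chr15:101200767-101212643 had 1 other peak between them. Their lung means were 26.3 ± 4.26, 26.1 ± 10.6 and 23.5 ± 6.49 CPM (SD, n = 4), the most even of the clusters of 3 or more. On chromosome 8 the cluster was looser, with 3 members among 9 peaks over 57.0 kb at chr8:86292364-86349393 and lung means of 11.3 to 39.98 CPM; it holds chr8:86308908-86309371, the member closest to the fold threshold. A further cluster, on chromosome 17, had 3 members among 7 peaks over 58.1 kb at chr17:46217986-46276133. Its middle peak, chr17:46241255-46242066, had the eighth highest lung mean of all members, with 106, 88, 82.4 and 66.7 CPM in lung, 6.52, 11.5, 9.19 and 7.58 CPM in brain and 18.5, 9.65 and 17.2 CPM in liver, while its last peak, 206 bp wide, had a lung mean of only 5.48 CPM.

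Peaks outside the set that lay close to a member also leaned toward lung. Of 369 such peaks within 5 kb of a member, 195 (52.8%) had their highest mean in lung, against 25.5% of the 58172 autosomal peaks outside the set. The share fell with distance, to 36.5% of 2579 peaks at 5 to 50 kb, 25.6% of 13850 at 50 to 500 kb and 24.6% of 41374 farther away. On the log2 scale, the median level of lung over the mean of brain and liver, each plus 0.5 CPM, was 0.33 within 5 kb, 0.06 at 5 to 50 kb, -0.13 at 50 to 500 kb and -0.14 beyond. The rule was applied to these peaks too, with the same libraries, and peaks just short of it are among them. The share at any distance was not matched for lung level, so the lean is a description only. Brain-mainly and liver-mainly peaks had such surroundings as well. Within 5 kb of them 58.3% and 61.2% of other peaks were highest in brain and in liver, against 24.3% and 45.4% at any distance.

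**Figure D5:**
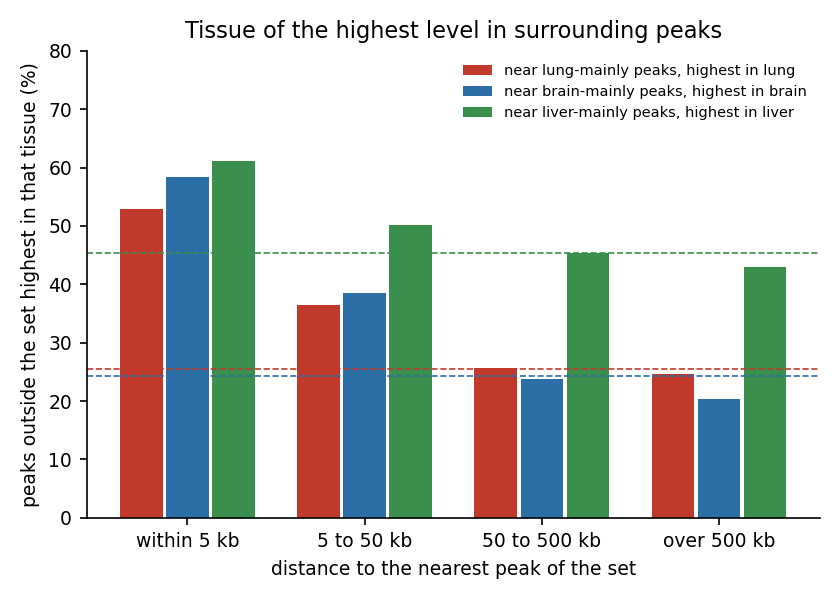
Bars give the percent of autosomal peaks outside a set that have their highest tissue mean in the tissue of that set, by distance to the nearest peak of the set; dashed lines give the same percent at any distance. Around lung-mainly peaks the share falls from 52.8% within 5 kb to 24.6% beyond 500 kb.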

How the data were processed

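For ATAC-seq the authors deposited raw read counts over 1 merged peak set, whose peak names, per the file headers and rows, mark it as made without a library called lung 3. MACS2, bedtools, Picard, Bowtie2, TopHat, SAMtools (1.10.2), Cell Ranger (1.2.0) and HTSeq (0.6.1) are named in the submitters' processing notes, as are mm9 and mm10, without saying which served the peaks; how reads were shifted, filtered or freed of duplicates is not given in the sources used here. The peak table has contigs such as chr13_random, a style of name found in mm9 and not in mm10, so positions are given in mm9; starts, read as counted from 0, had 1 added. Bulk RNA came as gene counts, raw per the file headers, and served only the check of the sort. The single-cell table was not used, and 1 planned comparison, of peaks with RNA of nearby genes, was not run because the annotation given was of another build.

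Levels are CPM over the library total, as means ± SD over libraries. The members and lists were chosen with earlier results of these data known. Peaks were named by rule: the 6 with the largest fold and with the highest lung mean, the 3 widest and narrowest, the 4 largest clusters (gaps up to 50 kb), those next to each threshold, the 3 with the largest and smallest CV at 10 CPM or more, the 3 highest whose libraries overlap, and the 3 most different between brain and liver in each direction. A further cluster and 2 further members were named after their values were seen.

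Tests ran in edgeR 4.0.16 (R 4.3.3): filterByExpr kept 58293 peaks, TMM scaling, 1 robust quasi-likelihood fit over all 11 libraries, a call at a Benjamini-Hochberg adjusted p under 0.05 with a change of 1 or more on the log2 scale. Simulated data with 200 changed peaks among 57020 were tested for brain against liver, at an adjusted p under 0.05 with no minimum change. This gave back 17% of the 2-fold and 80% of the 4-fold changes, with 7 false calls. Calls of members are descriptions, since the rule used levels of all 3 tissues. Intervals and floors of 3 counts cover counting error only. Alternatives covered scaling, thresholds, thinning, leaving out libraries, DESeq2 1.42.0 and a replicate block.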

Additional observations from a re-analysis of the deposited data

Results flagged for a closer look

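In 7 of the named peaks' groups of 4 libraries, 1 library lay far from the other 3, and chance alone would flag about 1 group in 20; 104 groups were looked at, the library summaries included, and 9 were marked. In lung, library 1 was low at chr13:81362849-81363207 (8.19 CPM) and high at chr6:118015956-118016588 (60.8 CPM). Lung a was high at chr17:82004528-82006104 (89.1 CPM) and low at chr10:79570339-79570943 (10.5 CPM). Lung 2 was low at chr17:89029113-89029753 (28.4 CPM), one of the steadiest members, where brain 1 was also the lowest brain library (6.46 CPM). Brain 3 stood above the other brain libraries at chr17:46275928-46276133 (2.80 CPM). Among library summaries, brain 1 held far more counts in peaks than the other brain libraries (17956240), and lung a was the only lung library with a member at 0 counts (1 member).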

How the results depend on the processing

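The number of lung-mainly peaks stayed between 458 and 809 under scaling, minimum, constant, median, depth and thinning alternatives, and between 578 and 796 when 1 library was left out. It moved to 1708 with a fold of 2 and 285 with a fold of 4, and the peaks with every lung library highest moved from 583 to 1333 and 277 (547 to 739 with 1 library left out). TMM sizes shared 602 of their 809 peaks with the 624. The median width of 444 bp became 426.5 bp at a fold of 2, 474 bp at 4, 496.5 bp at a minimum of 10 CPM, 468.5 bp with a constant of 1 CPM and 418 bp with lung a and b alone (435.5 to 446 bp with 1 library left out). The share of members with another within 50 kb, 12.2%, was 18.9% with TMM, 18% with DESeq2 size factors, 31.7% and 5.96% at folds of 2 and 4, 9.31% with a constant of 1 CPM, 20.7% with lung 1 and 2 alone, and 10.2% to 18.5% with 1 library left out; within 10 kb it was 5.93% and within 100 kb 18.6%. Of the member calls between brain and liver, the 7 of 623 for brain became 13 with no minimum fold, where 10531 of 58293 peaks were called. They became 2 with library size alone, where 4548 peaks were called, and 0 of 320 with the replicate block, where 6196 were. With 1 library left out they were 6 to 13, where 6820 to 8494 peaks were called. The 100 for liver became 21 of 320 with the block, where 7640 of 49076 peaks were called. With 1 library left out they were 40 to 141, where 7515 to 11753 peaks were called. Over all peaks, library size alone gave 1797 instead of 3208 higher in lung than liver and 4548 instead of 7611 higher in brain than liver. With 1 library left out the counts ran from 2296 to 3374 and from 6820 to 8494; the other 4 were 6674 to 9798 (lung over brain), 7533 to 9138 (brain over lung), 3709 to 4875 (liver over lung) and 7515 to 11753 (liver over brain). The replicate block covered libraries 1 to 3 of brain and liver, tested 320 members, and called 0 members higher in brain in edgeR (5 at an unadjusted p under 0.05). In this paired fit 6196 peaks were higher in brain and 7640 in liver. DESeq2 without a block, over all 11 libraries, called 8 of 624 members higher in brain, where 8206 of 60119 peaks were called. Deviations of same-numbered brain and liver libraries from their tissue means correlated at r = -0.02, -0.16 and -0.06. For libraries 1 and 2, r was 0.11 between lung and brain and -0.04 between lung and liver. With so few libraries these values cannot tell whether same-numbered libraries share animals or a batch. The cause of these changes was not tested. Depth limits weak members most: 5 CPM in lung a or b is 6 to 7 counts.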

Other observations

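On the X chromosome, outside the autosomal set, 17 of 1207 peaks met the same thresholds. The strongest, chrX:108810007-108811036, had 50.02, 42.2, 80.9 and 54.6 CPM in lung 1, 2, a and b, against 8.97 to 13.99 CPM in brain and 12.9 to 21.7 CPM in liver. No peak on Y or on unplaced contigs met them.

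The following peaks were picked after their values were seen, and none is a lung-mainly peak. At chr2:22445126-22445430 the level split the libraries across tissues: brain 1 and 2 had 45.1 and 46.4 CPM and lung 1 and 2 had 101.2 and 58.9 CPM, whereas brain 3 and 4 had 0.799 and 1.14, lung a and b 1.497 and 0, and liver 2.77, 1.84 and 1.08 CPM. This was the largest difference between the pairs of lung libraries among 20543 autosomal peaks with at least 10 CPM in either pair; 11 of them were at least 4-fold higher in lung 1 and 2 and 26 in lung a and b.

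Near the start of chromosomes 9 and 12, chr9:3024082-3024623 and chr12:3109784-3110221 ordered the libraries otherwise than the tissues. The first had 51.9, 93.4, 324 and 469 CPM in lung 1, 2, a and b, 23.6, 99.99, 164 and 83.8 CPM in brain, and 314, 265 and 345 CPM in liver. The second had 45.1, 91.9, 376 and 570.4 CPM in lung, 23.2, 105, 218 and 120.4 CPM in brain, and 613, 479.9 and 786 CPM in liver. In both peaks lung a and b lay above lung 1 and 2 and above every brain library.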
